A study of Homo sapiens with 4 samples.

Results

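The AP-1 subunit genes FOS, FOSB, FOSL1, FOSL2, JUN, JUNB, JUND, ATF3 and BATF3 are 9 of the 20090 protein-coding genes of the GENCODE annotation used here. Chromatin accessibility was examined in each gene and within 100 kb of its transcription start site (TSS). ATAC-seq had been performed on 4 libraries of MCF10A, an immortalized and nontransformed human mammary epithelial cell line. The 2 libraries called MCF10A carry the genotype label Parental, and the 2 libraries called G12V carry the genotype label H-RAS Gv12. G12V cells are the same line after lentiviral transduction with an HRas V12 expression vector and selection with hygromycin, and a GFP vector was used to follow transduction. The G12V cells are therefore a selected population, and the labels name no vector-only control. Both cell types were kept at low passage in the same medium with EGF, insulin, hydrocortisone, cholera toxin and horse serum, so the parental cells were also exposed to a growth factor. The comparison asked whether accessibility around these genes differed between parental and transformed cells, and between subunits.

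AP-1 is a family of dimeric transcription factors with a basic region that contacts DNA and a leucine zipper that joins the partners. JUN proteins can pair with each other, FOS proteins need a JUN-type partner, and ATF3 and BATF3 also dimerize with JUN proteins. The dimers bind the element TGAGTCA, which reads TGACTCA on the other strand, or the related cAMP response element TGACGTCA. Growth factors and RAS act on these genes through MAP kinases, and several of them are immediate-early genes, transcribed within minutes of a stimulus. In epithelial cells AP-1 is known for its part in proliferation, differentiation and the response to stress.

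Of 60886 regions, formed by joining peaks that shared at least 1 bp in any of the 4 lists, 74 lay within 100 kb of the TSS of at least 1 subunit gene. Of these, 9 overlapped a promoter of a subunit gene, taken as 1000 bp upstream to 500 bp downstream of the TSS, 18 were distal but overlapped the promoter of another protein-coding gene, and 47 were distal and overlapped none. The TSSs of ATF3 and BATF3 are 91079 bp apart on chromosome 1, so 10 regions lay in the windows of both genes and were counted once in the total.

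The sequences that follow were read from GRCh37 and are written 5′ to 3′, with known element types in capitals. In the JUN promoter the capitals mark TGACATCA, the variant AP-1 element of that gene, whose first base lies at -67 from the TSS (chr1:59249720-59249969, minus strand). In the FOS promoter they mark the CArG box, to which serum response factor binds, at -314 (chr14:75745177-75745266, plus strand). In the FOSB promoter they mark TGACGTCA at -325 and a CArG box at -274 (chr19:45970909-45971008, plus strand). In the JUND promoter they mark TGACGTCA at -200 (chr19:18392585-18392672, minus strand). In FOSL1 and FOSL2 they mark the AP-1 element at the start site itself, with first bases at -1 (chr11:65667843-65667871, minus strand) and +5 (chr2:28615718-28615746, plus strand).
JUN promoter: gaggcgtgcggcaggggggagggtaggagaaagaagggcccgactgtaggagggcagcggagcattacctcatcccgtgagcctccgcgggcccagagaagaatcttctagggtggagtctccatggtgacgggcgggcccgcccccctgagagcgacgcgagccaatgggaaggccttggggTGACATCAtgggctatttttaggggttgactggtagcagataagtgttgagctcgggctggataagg
FOS promoter: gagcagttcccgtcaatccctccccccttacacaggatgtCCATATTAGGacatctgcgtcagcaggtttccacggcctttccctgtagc
FOSB promoter: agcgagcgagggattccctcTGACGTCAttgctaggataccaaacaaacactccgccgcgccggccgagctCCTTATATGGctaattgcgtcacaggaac
JUND promoter: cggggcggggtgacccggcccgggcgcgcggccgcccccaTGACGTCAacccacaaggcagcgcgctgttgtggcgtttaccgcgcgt
FOSL1 promoter: cacggcgcgggTGAGTCAgaacccagcag
FOSL2 promoter: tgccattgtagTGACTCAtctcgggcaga

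AP-1 elements are shown for 4 further regions, each as 121 bases on the plus strand centred on the element in capitals. The choice was made from the JUNB promoter region and the 3 distal regions with the largest difference in each direction, and only those with an AP-1 element are shown. The gained region, a FOS region 24.0 kb upstream and a JUNB region 15.2 kb downstream held none. The regions 56.4 kb downstream (chr1:59193188-59193308) and 99.5 kb upstream (chr1:59349087-59349207) of JUN had the largest higher values in G12V cells beside the 1 gained region. The region 1.34 kb upstream of JUNB (chr19:12900273-12900393) had lower values in G12V cells, and its printed stretch begins just outside the region's edge. The region 59.0 kb downstream of ATF3 (chr1:212840844-212840964) was among those with the largest lower mean in G12V cells. It was also the ATF3 distal region with the highest mean value over the 4 libraries.
JUN +56.4 kb: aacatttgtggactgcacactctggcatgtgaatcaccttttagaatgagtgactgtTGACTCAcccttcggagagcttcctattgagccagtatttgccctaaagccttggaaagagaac
JUN -99.5 kb: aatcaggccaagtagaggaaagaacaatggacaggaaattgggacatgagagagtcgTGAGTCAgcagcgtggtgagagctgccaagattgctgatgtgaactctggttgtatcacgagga
JUNB -1.34 kb: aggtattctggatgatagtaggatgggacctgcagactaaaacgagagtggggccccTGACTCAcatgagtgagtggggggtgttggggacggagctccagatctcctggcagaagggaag
ATF3 +59.0 kb: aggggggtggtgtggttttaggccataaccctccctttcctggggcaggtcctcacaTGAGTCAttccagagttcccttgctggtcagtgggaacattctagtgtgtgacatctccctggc

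The lists differed in length by replicate number more than by cell type. They held 12888 peaks in MCF10A replicate 1, 34463 in MCF10A replicate 2, 14042 in G12V replicate 1 and 46673 in G12V replicate 2 on the autosomes and X. The number of reads behind each list is unknown from these files, and a site just under the caller's threshold in a short list is recorded as no peak. Peak scores depend on depth, so each peak is given as its score percentile within its own list, from 0 to 100, and a library without a peak was set to 0. Such a percentile still depends on the length of its list, so ranks among a common set of regions are given further on. Over the 5090 regions with a peak in all 4 libraries, the correlation of the rank-based scores was 0.564 between the MCF10A replicates, 0.617 between the G12V replicates and 0.717 between MCF10A replicate 2 and G12V replicate 2, the longest lists. In bulk cells, more cells with an open site and a more open site per cell cannot be told apart. Of 9 mammary and epithelial marker genes, 3, 3, 0 and 1 had a promoter peak in MCF10A replicates 1 and 2 and G12V replicates 1 and 2. KRT5, KRT14, KRT18, CDH1 and TP63 had none in any library, and 6 matched blood, endothelial and hepatocyte markers also had none. Around the endogenous HRAS gene, 1 peak was listed in each MCF10A library and 0 in each G12V library, which does not check the introduced vector.

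Around the 9 genes together, 20 peaks were listed in MCF10A replicate 1, 52 in MCF10A replicate 2, 25 in G12V replicate 1 and 61 in G12V replicate 2. These were 0.155% (95% Wilson interval 0.1 to 0.24) and 0.151% (0.115 to 0.198) of the MCF10A lists, and 0.178% (0.121 to 0.263) and 0.131% (0.102 to 0.168) of the G12V lists. The shares overlapped between the cell types, and the intervals cover counting error only. For most single genes replicate 2 held more peaks than replicate 1, as the plot of peaks by gene and library shows. FOS had 3 and 9 peaks in the MCF10A libraries and 2 and 5 in the G12V libraries, and JUN had 6 and 9 against 8 and 11. ATF3 had 3 and 10 against 5 and 13, and BATF3 had 3 and 10 against 5 and 15, where most of the peaks of each of these genes are shared with the other. FOSB had no peak in replicate 1 of either cell type and 4 and 5 in replicate 2. No difference in peak number between the cell types passed the exact two-sided permutation test (9 genes, p = 0.667 to 1.0). With 2 libraries against 2, the smallest p possible is 0.33.

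**Figure D1:**
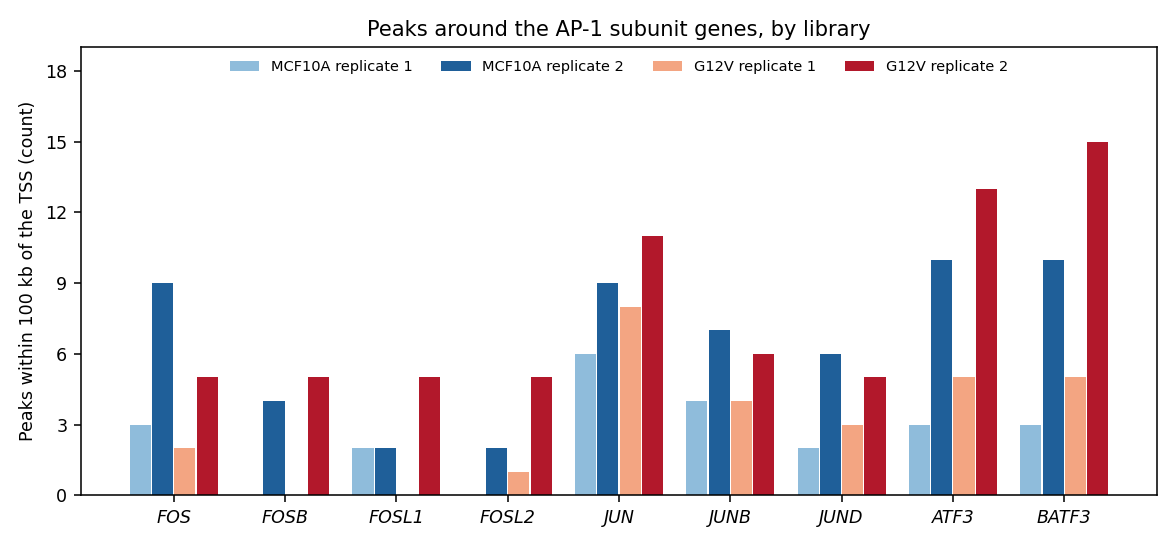
Number of peaks within 100 kb of the TSS (y axis, count) for each AP-1 subunit gene (x axis) in each of the 4 libraries (bars). Replicate 2 of each cell type has more peaks than replicate 1 for 8 of 9 genes, and FOSL1 has 2 in both MCF10A libraries and 0 and 5 in the G12V libraries.

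The genes differed in how many accessible regions lay around them. BATF3 had 16 regions within 100 kb, ATF3 14, JUN 11, JUNB 10, JUND 9, FOS 8, FOSB 6, FOSL1 6 and FOSL2 4. Over all protein-coding genes the median was 5 regions, with quartiles of 3 and 8, so that BATF3 and ATF3 stood at the 99.2 and 97.9 percentile of genes and FOSL2 at the 35.1 percentile. A region was counted if any of the 4 lists held it, and the BATF3 and ATF3 counts share 10 regions. Among the 9 genes, JUN had the most regions found in every library. Of protein-coding genes, 38.1% had at least 1 such region, and the share with as many as JUN was not computed. It had 6 regions with a peak in all 4 libraries, FOS, JUNB and JUND had 2 each, ATF3 and BATF3 had 1, the ATF3 promoter, which lies in both windows, and FOSB, FOSL1 and FOSL2 had 0.

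Of the 74 regions, 13 had a peak in all 4 libraries, which was 17.6% (95% Wilson interval 10.6 to 27.8), against 8.36% of all regions. Another 34 had a peak in 1 library, 14 in 2 and 13 in 3. G12V replicate 2 alone held 20 of them, 27.0% (18.2 to 38.1), against 34.6% of all regions. A region was called gained where a peak was listed in both G12V replicates and in no MCF10A replicate, and lost in the opposite case. Of the 74 regions, 1 was gained (1.35%, where 3.2% of all regions were gained) and 0 were lost (upper limit of the interval 4.93%, where 2.14% of all regions were lost). By gene, ATF3 and BATF3 had at least 1 gained region within 100 kb, the same one, where 14.9% of protein-coding genes had one. None had a lost region, where 9.25% of genes had one. The interval of the gained share, 0.239 to 7.27%, included the share of all regions.

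**Figure D2:**
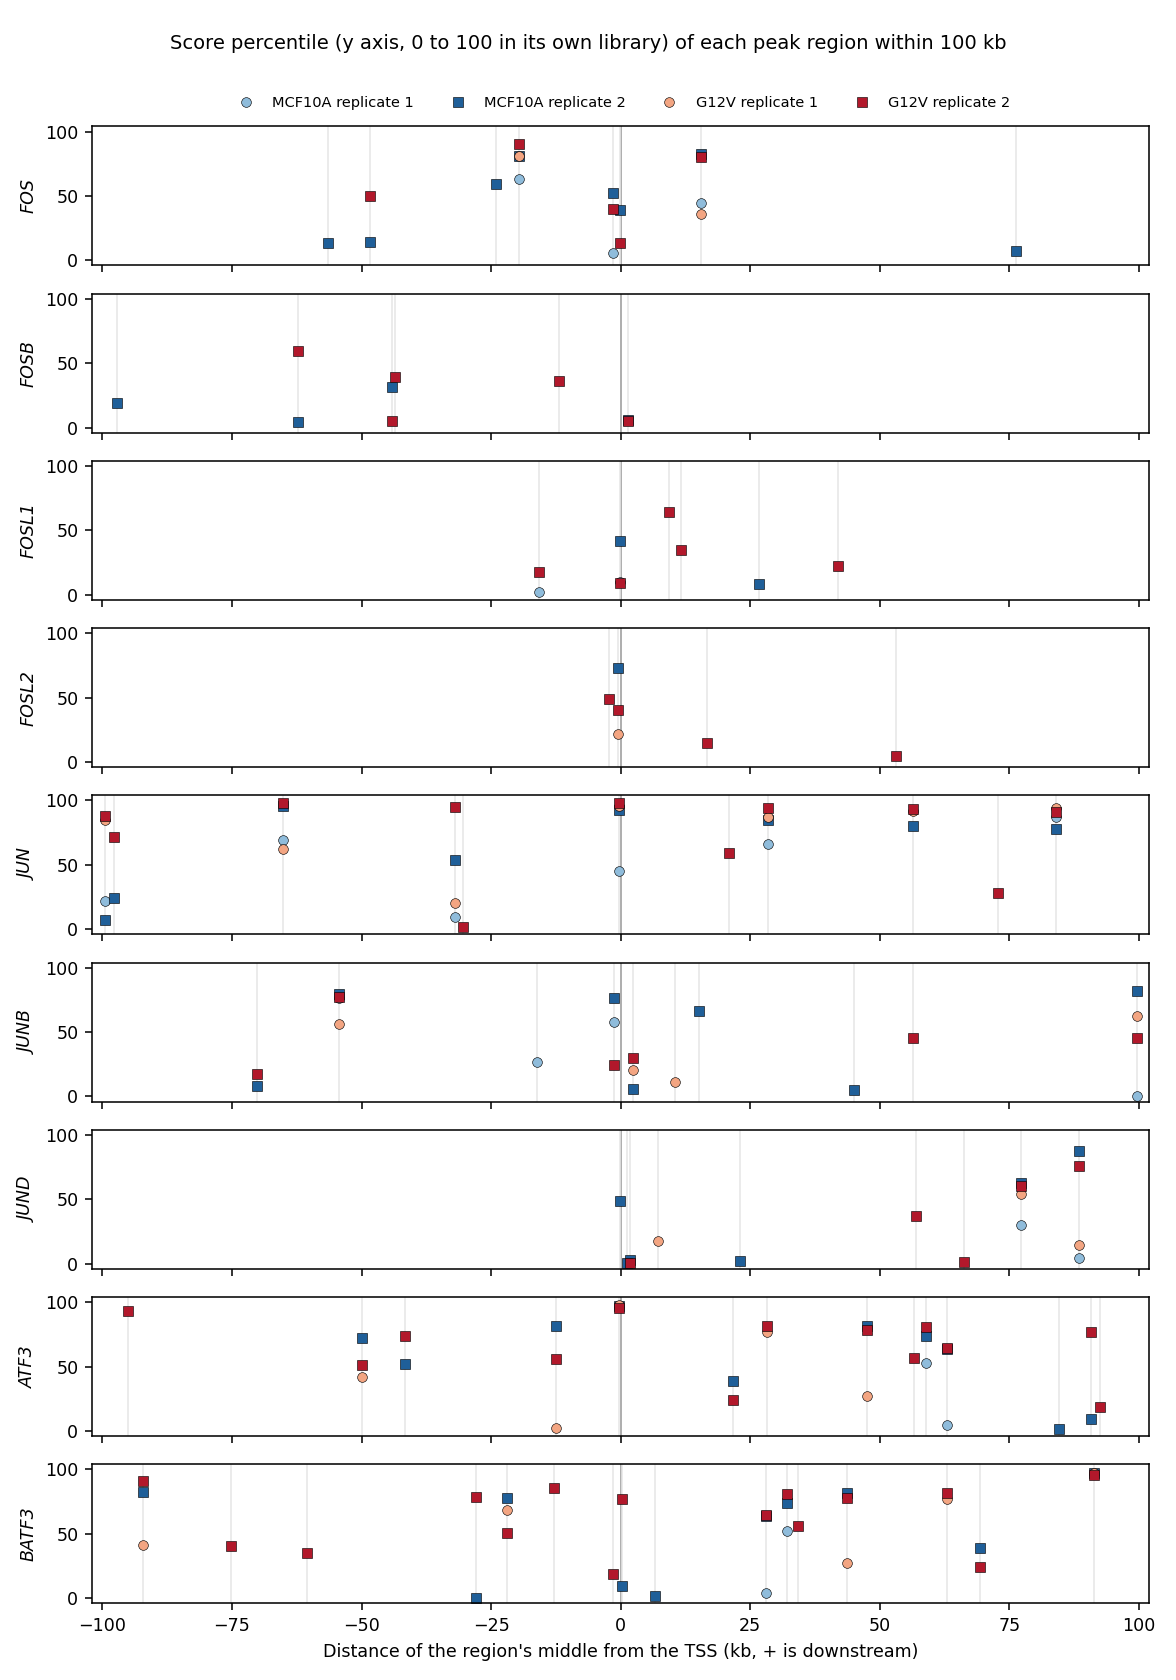
Score percentile of each peak in its own library (y axis, 0 to 100) against the distance of the region's middle from the TSS (x axis, kb, positive downstream), with 1 panel for each gene and 1 colour and symbol for each library. Symbols of all 4 libraries occur at 6 positions in the JUN panel and at 0 in the FOSB, FOSL1 and FOSL2 panels, and ATF3 and BATF3 show the same 10 regions from opposite ends.

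JUN, which can act as a homodimer and is phosphorylated by JNK kinases, had the highest mean promoter percentile over the 4 libraries after ATF3, and higher promoter values in both G12V libraries than in both MCF10A libraries. Its promoter region (chr1:59248461-59251697, over the start of the gene and an exon of a lncRNA) stood at the 45.4 and 92.9 percentile in MCF10A replicates 1 and 2 and at the 95.9 and 98.1 percentile in G12V replicates 1 and 2. Both G12V values were above both MCF10A values, and MCF10A replicate 1 was far below the other 3. The G12V mean was 97.0 ± 1.56 and the MCF10A mean 69.1 ± 33.6 (SD over 2 libraries), and the difference of 27.8 points was smaller than the spread within MCF10A (exact two-sided permutation test, p = 0.33, the smallest possible). The size of the difference rested on MCF10A replicate 1, since without it the difference was 4.07 points, and within pairs of the same number it was 50.5 in replicate 1 and 5.17 in replicate 2. The deposited scores at this promoter, on the scale of -10 log10 of the p-value, were 62.5 and 213 in MCF10A and 155 and 448 in G12V. JUN was the 1 gene of 9 with a higher promoter percentile in both G12V libraries, and 4.87% of protein-coding genes had this pattern. The TGACATCA element shown for JUN lay under the peak of all 4 libraries, as did an ETS-type CCGGAAGT at -604.

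Of the 11 regions within 100 kb of JUN, 5 had both G12V percentiles above both MCF10A percentiles and 0 had both below. Over all regions, 7.18% had the first pattern and 3.98% the second, with an absent peak set to 0. A region with a peak in 1 library can show neither, and such regions were 56.4% of all regions but 3 of the 11. Of the 6 JUN regions with a peak in all 4 libraries, 4 had the first pattern, against 18.5% of all such regions. Own-list values were generally higher in G12V, with a higher mean in 63.9% of all regions and a median difference of 6.37 points. This was not so for ranks among the regions with a peak in all 4 libraries. There, 18.7% had both G12V values higher and 18.6% both lower. Within the replicate 2 pair, where G12V has the longer list, all 11 JUN regions were higher in G12V, against 62.1% of all regions. Within the replicate 1 pair 6 JUN regions were higher and 1 was lower, and the rest of the 11 had no peak in either library. Of all 60886 regions, 11011 (18.1%) were higher and 9319 (15.3%) lower. Most of the 60886 had no peak in either replicate 1 library, so both shares are low. With the same number of best-scoring peaks taken from each list, 5 of the 7 JUN regions then left had both G12V values higher, against 11.7% of all regions left. The sets differed by 1 region. In equal lists the region 84.0 kb downstream overlapped, at 87.4 and 40.3 in MCF10A against 93.8 and 67.3 in G12V. The region 31.9 kb upstream was separated there instead, at 9.8 and no peak against 13.2 and 82.2. The 5 regions of the full lists lay from 84.0 kb downstream to 99.5 kb upstream of the TSS.
At 99.5 kb upstream (chr1:59348812-59349638, in an intron of LINC01135 and over an exon of LINC02777, both lncRNAs) the percentiles were 22.3 and 7.12 in MCF10A and 84.6 and 88.0 in G12V. The MCF10A values were both low in their lists, and the G12V values were both high. At 56.4 kb downstream (chr1:59192903-59193785, in an intron of a lncRNA) MCF10A replicate 1 had no peak and MCF10A replicate 2 stood at 80.5, while G12V stood at 91.6 and 93.2. The gap between the cell types there was mostly the 1 library without a peak. At 28.4 kb downstream, in the same lncRNA, the values were 66.4 and 85.1 against 87.1 and 94.2. At 84.0 kb downstream, which is the promoter of the neighbouring gene MYSM1, they were 87.4 and 77.7 against 94.3 and 91.0. These 2 regions were in the upper part of every list, with differences of a few points between the nearest libraries.
In the full lists, the other JUN regions did not separate the cell types. At 65.1 kb upstream the percentiles were 69.1 and 95.6 in MCF10A and 62.7 and 98.4 in G12V, and at 31.9 kb upstream they were 9.78 and 53.6 against 20.3 and 95.1. Both followed the replicate number. The region 97.7 kb upstream had a peak in the 2 replicate 2 libraries, at 24.5 in MCF10A and 71.9 in G12V. The regions at 72.8 and 20.9 kb downstream and 30.5 kb upstream had a peak in G12V replicate 2 alone, at 28.5, 59.2 and 2.11.

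**Figure D3:**
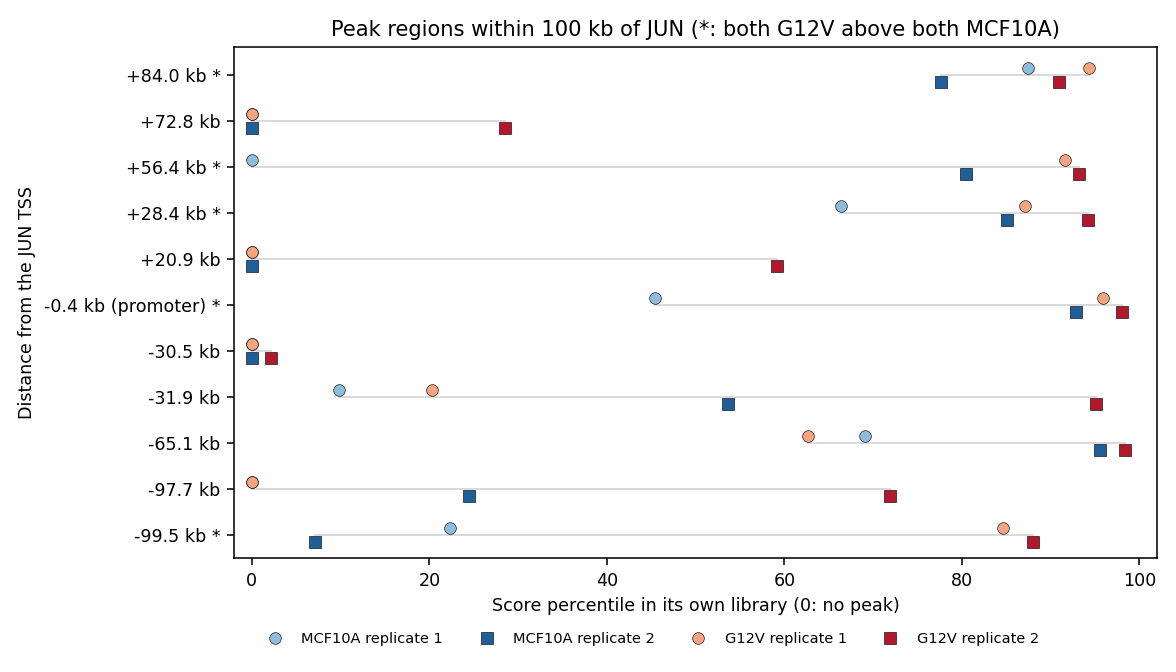
Score percentile (x axis, 0 meaning no peak) of the 11 peak regions within 100 kb of JUN, ordered by distance from the TSS (y axis, kb), with 1 symbol for each library and an asterisk where both G12V values exceed both MCF10A values. The asterisks mark 5 regions, the promoter among them, and the separation is widest at 99.5 kb upstream, with 22.3 and 7.12 against 84.6 and 88.0.

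JUNB and JUND, the other JUN-type partners, showed the opposite or no separation. JUNB, which can restrain JUN and also has targets of its own, had a promoter region whose near edge lay 683 bp upstream of the TSS (chr19:12900312-12901617). It stood at the 57.6 and 76.5 percentile in MCF10A, had no peak in G12V replicate 1 and stood at 24.7 in G12V replicate 2. Both G12V values were below both MCF10A values, with means of 12.4 ± 17.5 and 67.1 ± 13.4 (SD, n = 2 each) and a difference of -54.7 points (exact two-sided permutation test, p = 0.33, the smallest possible). At 2.41 kb downstream of the same TSS, just past the gene, the order was the other way, with no peak and 5.72 in MCF10A against 20.6 and 29.8 in G12V. The values at both ends of JUNB were thus separated by cell type in the full lists, in opposite directions. With the same number of best-scoring peaks taken from each list, only the upstream separation was left. The upstream region then stood at 57.6 and 37.3 in MCF10A with no peak in G12V. The downstream region had a peak in G12V replicate 1 alone, at 13.4. The JUNB distal region with the highest mean, at 54.3 kb upstream at the GET3 promoter, stood at 76.5, 79.5, 55.9 and 77.3 over the 4 libraries in the same order. A region at 15.2 kb downstream, at the promoter of RNASEH2A, had a peak in MCF10A replicate 2 alone, at 66.6, and was among the 3 distal regions with the largest lower mean in G12V.
JUND, the JUN-type subunit that most cell types make without a stimulus, had a promoter peak in MCF10A replicate 2 alone, at the 48.6 percentile (chr19:18392168-18393106). That peak covered the TGACGTCA shown for JUND. Its distal region with the highest mean, 77.3 kb downstream at the RAB3A promoter, stood at 29.9 and 63.0 in MCF10A and 54.4 and 60.2 in G12V. The cell types overlapped there.

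The FOS-type genes had lower promoter percentiles than JUN and ATF3 in every library, and more of their promoter peaks were in the longer lists. FOS, the classical immediate-early subunit, had its TSS peak in MCF10A replicate 2 at the 38.9 percentile and in G12V replicate 2 at 13.6 (chr14, region middle 215 bp upstream), and none in either replicate 1. Both peaks covered the CArG box at -314. A second merged region reached the edge of the FOS promoter, with its middle 1.44 kb upstream. Its best peaks, at 5.36 and 52.4 in MCF10A and at 40.0 in G12V replicate 2 alone, ended upstream of the promoter window and are not counted as promoter peaks. The strongest FOS region was distal, 19.6 kb upstream (chr14:75725440-75726330, in an intron of a lncRNA), at 63.2 and 80.7 in MCF10A and 80.9 and 90.0 in G12V. In their own lists the cell types were separated there by a fraction of a point between the nearest libraries. Ranked among the regions with a peak in all 4 libraries, they overlapped, at 45.0 and 33.6 in MCF10A against 60.8 and 41.5 in G12V. A region 24.0 kb upstream had a peak in MCF10A replicate 2 alone, at 59.1, and was also among those with the largest lower mean in G12V.
FOSB, a close paralogue of FOS induced by the same stimuli, had no promoter peak in any library, the 1 gene of the 9 without one. Its TGACGTCA and CArG box, shown for FOSB, were therefore outside every listed peak. Its distal region with the highest mean, 62.3 kb upstream at the promoters of POLR1G and PPP1R13L, stood at 3.91 in MCF10A replicate 2 and 59.2 in G12V replicate 2. Neither replicate 1 library had a peak there.
FOSL1, which codes for FRA1, a subunit stabilised by phosphorylation, had promoter peaks at the 10.2 and 42.1 percentile in MCF10A, none in G12V replicate 1 and 9.49 in G12V replicate 2. Both MCF10A values were above both G12V values, but MCF10A replicate 1 and G12V replicate 2 were less than 1 point apart. With the same number of best-scoring peaks taken from each list, only MCF10A replicate 1 kept a FOSL1 promoter peak, at 10.2. The cell types were then not separated. The AP-1 element over its start site lay under the peak of both replicate 2 libraries and not under that of MCF10A replicate 1. FOSL2, which codes for FRA2, had no promoter peak in MCF10A replicate 1, and stood at 73.0 in MCF10A replicate 2 and at 22.1 and 40.4 in G12V. The element at +5 lay under all 3 of these peaks. The FOSL1 distal region with the highest mean was the CCDC85B promoter 9.38 kb downstream, with a peak in G12V replicate 2 alone at 64.4, and that of FOSL2 lay 2.24 kb upstream, also in G12V replicate 2 alone, at 49.1.

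ATF3, a stress-induced partner that often acts as a repressor, had the smallest range of own-list promoter percentiles among the 8 genes with a promoter peak. It stood at the 96.3 and 97.2 percentile in MCF10A and at 97.5 and 95.4 in G12V (chr1:212780604-212783069), with a difference of the means of -0.304 points (exact two-sided permutation test, p = 1.0). The range was wider with the same number of best-scoring peaks taken from each list, at 96.3 and 92.6 against 97.3 and 83.2. JUN and ATF3 were the 2 of 9 genes with a promoter peak in all 4 libraries, where 15.0% of protein-coding genes had one. In at least 1 library 8 of the 9 genes had a promoter peak, where 53.1% of protein-coding genes did, and 0 of 9 had one in both libraries of 1 cell type and neither of the other (0.886% of genes for G12V and 0.513% for MCF10A). The 1 gained region lay 28.2 kb downstream of the ATF3 TSS and 62.9 kb downstream of that of BATF3 (chr1:212809803-212810736). It was intergenic, and the nearest protein-coding TSS, that of GARIN4, lay 11987 bp away. It had no peak in either MCF10A library and stood at the 76.9 and 81.6 percentile in G12V replicates 1 and 2. None of the elements sought was found in it. The ATF3 distal region at 59.0 kb, whose AP-1 element is shown for ATF3, stood at 52.4 and 73.9 in MCF10A, had no peak in G12V replicate 1 and stood at 81.0 in G12V replicate 2, so the cell types were not separated. It was still among the 3 distal regions with the largest lower mean in G12V, since G12V replicate 1 counted as 0.
BATF3, a small partner known from dendritic cells, had a promoter peak in MCF10A replicate 2 at the 9.4 percentile and in G12V replicate 2 at 76.8. Neither replicate 1 library had one. Apart from the ATF3 promoter, which lies 91.3 kb downstream, its distal region with the highest mean, 92.1 kb upstream at the promoters of NSL1 and TATDN3, had no peak in MCF10A replicate 1 and stood at 82.6 in MCF10A replicate 2 and at 41.3 and 90.7 in G12V.

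**Figure D4:**
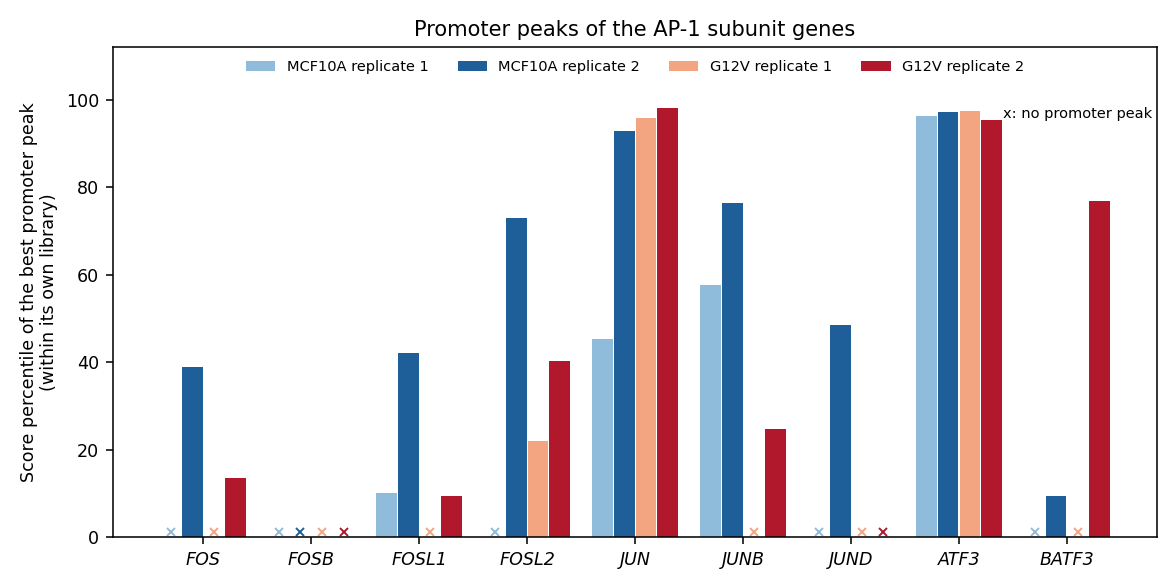
Score percentile of the best promoter peak (y axis, from 0, within its own library) of each AP-1 subunit gene (x axis) in the 4 libraries (bars, with a cross where no promoter peak was listed). ATF3 lies between 95.4 and 97.5 in every library, JUN is at 45.4 in MCF10A replicate 1 and above 90 elsewhere, JUNB is higher in both MCF10A libraries, and FOSB has no promoter peak.

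Ordered by the mean over the 4 libraries, ATF3 was first and JUN second, with values that overlapped. JUNB, FOSL2, BATF3, FOSL1, FOS and JUND followed, and FOSB was last. Each of these genes overlapped its neighbours in the order, and only ATF3 stood above JUNB and all later genes in every library. The shape over the 4 libraries was compared as the mean absolute difference of promoter percentiles, a description over 4 libraries. FOS and FOSL1 were the most alike, 4.36 points apart. For each of the other genes with a promoter peak the nearest subunit gene is given. JUND was 5.81 points from FOS, JUN and ATF3 were 14.9 from each other, FOSL2 was 20.8 from FOS, BATF3 21.5 from FOSB and JUNB 24.3 from FOSL1. Such distances were also met by genes outside the family. The nearest other gene to JUN was CEP44 at 0.878 points, with 64 genes within 5 points, and the nearest to JUNB was CHMP4B at 3.21, with 6 genes within 5 points. Within 5 points lay 259 other genes for FOS, 48 for FOSL1, 8 for FOSL2, 431 for JUND, 669 for ATF3 and 254 for BATF3.

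Scores were compared directly over the 5090 regions with a peak in all 4 libraries, with the rank of each region among these same regions turned into a normal score. The limma fit, with Benjamini-Hochberg adjustment over all 5090 regions, called 0 regions (0.0%) at an adjusted p of 0.05, and 346 regions had an unadjusted p under that value, which is 6.8% of them. With the replicate number as a block it called 6 (0.118%), none of them near a subunit gene. Of the 13 such regions near subunit genes, 8 differences were above 0 and 5 below, with a median of 0.305, against -0.00319 for all 5090. The 6 JUN regions were all above 0, and the other 7 had 2 above and 5 below. The region 99.5 kb upstream of JUN had the largest difference, 1.85 ± 0.616 (SE), with an adjusted p of 0.724. On this common scale it stood at the 12.1 and 0.648 percentile in MCF10A and the 66.3 and 35.5 percentile in G12V. The JUN promoter followed at 1.21 ± 0.556 (SE, adjusted p = 0.74), with 29.1 and 63.2 against 89.0 and 83.5. Without 1 library the first difference ranged from 1.21 (without MCF10A replicate 2) to 2.42, and that of the promoter from 0.654 (without MCF10A replicate 1) to 1.64. The ATF3 promoter was at -0.208 ± 0.578 (SE, adjusted p = 0.961), with 91.5 and 82.9 in MCF10A against 93.4 and 65.4 in G12V. In their own lists, 5 of the 13 regions had both G12V percentiles higher and 0 both lower, where 18.5% and 6.94% of the 5090 regions had these patterns. On the common scale the counts were 3 and 1 of 13, where 18.7% and 18.6% of the regions had them, and all 3 higher regions were JUN regions (at 28.4 kb downstream, the promoter and 99.5 kb upstream).

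**Figure D5:**
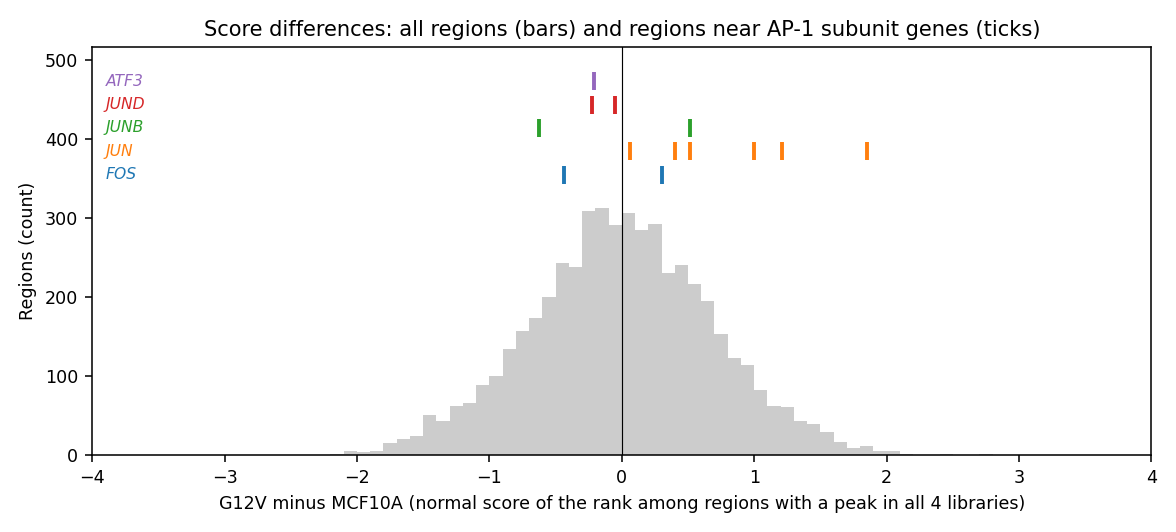
Histogram of the G12V minus MCF10A difference in rank-based normal score (x axis) for the 5090 regions with a peak in all 4 libraries (bars, y axis counting regions), with ticks above it for the 13 regions near AP-1 subunit genes, 1 row for each gene. The 6 JUN ticks lie above 0, from 0.0604 to 1.85, while those of FOS and JUNB lie on both sides and those of JUND and ATF3 below 0.

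The AP-1 element, TGAGTCA on either strand, was present in 24 of the 74 regions, 32.4% (95% Wilson interval 22.9 to 43.7), against 37.5% of all regions. In the 150 bp at the middle of each region the shares were 8.11% (3.77 to 16.6) and 16.0%. Regions near the subunit genes were wider than the whole set, with a median of 800 bp against 547 bp, and had a higher GC content, with a median of 58.8% against 46.6%. Per kb of region they held 0.485 AP-1 elements, against 0.712 in all regions. By gene, the element was found in 6 of 11 JUN regions, 7 of 14 ATF3 regions and 6 of 16 BATF3 regions, but in 0 of 8 FOS regions and 1 of 10 JUNB regions. FOSB, FOSL1 and FOSL2 had it in 2 regions each, of 6, 6 and 4, and JUND in 1 of 9.
Among the other elements, TGACGTCA was in 2 of the 74 regions (2.7%, against 1.18% of all), TGACATCA in 4 (5.41%, against 3.23%), the CArG box in 3 (4.05%, against 3.33%) and the ETS-type CCGGAAGT in 4 (5.41%, against 2.28%). Each interval included the share of all regions. In promoters of protein-coding genes, taken over the full 1501 bases, TGAGTCA occurred in 15.4%, TGACGTCA in 3.94%, TGACATCA in 5.15%, the CArG box in 6.29% and CCGGAAGT in 8.59%. The matches are descriptions of the sequence, and no binding was measured.

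The genes around AP-1 were counted in the same way. Among 10 other immediate-early genes, 5 and 8 had a promoter peak in the MCF10A libraries and 4 and 7 in the G12V libraries, with 3 in all 4, and among 9 other bZIP partners they were 3 and 3 against 3 and 4, with 3 in all 4. The 9 subunit genes had 4 and 8 against 3 and 7. Of protein-coding genes, 22.2% and 44.5% had a promoter peak in the MCF10A libraries and 24.2% and 47.0% in the G12V libraries. A promoter percentile higher in both G12V libraries was found for 2 of 10 immediate-early genes and 0 of 9 bZIP partners, and a lower one for 0 of each. Among the subunit genes, 1 was higher (JUN) and 2 were lower (FOSL1 and JUNB), where 4.87% and 2.38% of protein-coding genes had these patterns. In lists of equal length FOSL1 no longer had the lower pattern.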

How the data were processed

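The authors performed ATAC-seq on 4 MCF10A libraries, aligned reads to hg19 with Bowtie, kept uniquely placed reads, shifted read starts to where the transposase had cut and used MACS to call peaks. The deposited lists, 1 per library, give coordinates and the MACS score, -10 log10 of the p-value, with a lowest value of 40. The study pooled replicates for its own calls, and the lists used here are per library. Library depth is unknown from these files, so precision is limited by list length, and intervals cover counting error only.

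Gene models were those of GENCODE 44 lifted to GRCh37, each gene at its canonical TSS, and sequences came from the same build. No peak (0) ended past a chromosome end of that build over 23 chromosomes. Peaks of the autosomes and X were merged where they overlapped by at least 1 bp. Motifs were sought without mismatch on both strands: TGAGTCA, TGACGTCA, TGACATCA, CCGGAAGT, and the CArG box of serum response factor. A palindromic TGACGTCA match was counted once.

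Single values were compared by exact two-sided permutation tests, and ranked scores by limma 3.58.1 in R 4.3.3. Python 3.11.15 with pandas 2.3.3, scipy 1.17.1 and statsmodels 0.14.6 did the rest, and matplotlib 3.10.9 drew the figures. Merging, motif search and the limma fit were tested on simulated data. The regions named were those at a subunit promoter, gained or lost regions, the distal region of each gene with the highest mean percentile and the 3 distal regions with the largest difference in each direction. All 11 JUN regions and the JUNB region at 2.41 kb were named after their values were seen. The 9 genes and the context lists were chosen with earlier results of these data known, and the result of 1 context list is not reported here. The labels share replicate numbers across the cell types without saying that a number marks a shared culture or day. The methods name the replicates as biological, and p-values measure the spread between these samples.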

Additional observations from a re-analysis of the deposited data

How the results depend on the processing

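Most values depended on which lists entered. Within 100 kb, 38 regions were left from the better-scoring 50% of each list, with 2 gained (ATF3 at 28.2 kb and JUN at -99.5 kb), 1 lost (JUNB at -1.34 kb) and 1 promoter in all 4 libraries. With 12888 peaks per list, 37 regions were left, 1 gained and 2 lost (JUNB at -1.34 kb and BATF3 at 28.0 kb). The ATF3 region was gained under every one of these settings, under 50% overlap, 200 bp merging and a 50 kb window, and without each library in turn. Only the merging rules could have changed this. A gained region stays gained without any 1 library, and its scores and distance kept it in the shorter lists and the smaller window. Without 1 library, gained regions ranged from 1 to 21 (21 without G12V replicate 1, 9 without MCF10A replicate 2, 3 without G12V replicate 2), lost regions from 0 to 11 (11 without MCF10A replicate 1, 5 without G12V replicate 2), and genes with a promoter peak in every remaining library from 2 to 4. The shares of all regions gained or lost were not computed under these alternatives, so the counts have no share to be set against. Leaving out 1 library also loosens the rule for gained or lost. The share of regions with the AP-1 motif was 8.11% in the middle 150 bp.

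The replicate numbers share only a number, and deviations of same-numbered samples correlated at 0.175 over 5090 regions. Each pair taken alone gave 13 gained and 8 lost regions near subunit genes in pair 1 and 22 and 11 in pair 2. The shares of all regions gained or lost within a pair were not computed. The limma fit with the replicate block called 6 of 5090 regions (4 higher and 2 lower in G12V, 0.118%), none near a subunit gene, where the JUN region at -99.5 kb had an adjusted p of 0.174. Without 1 library limma called from 0 to 3 regions, 3 without G12V replicate 1. Quantile-normalised log2 scores gave 0 calls and 370 regions with an unadjusted p under 0.05.

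Counts of JUN regions with both G12V percentiles higher, in alternatives chosen after seeing the data, were 5 in the better-scoring 50%, in equal lists and under both other merging rules, 2 of 5 regions within 50 kb, 3 of 6 on the common scale, and from 5 to 11 without 1 library (11 without G12V replicate 1). Without G12V replicate 2, 1 JUN region was lower. Of these alternatives, the share of all regions was computed for equal lists (11.7%) and the common scale (18.7%) only. The other counts have no share to be set against. Without G12V replicate 1, the longest list alone stood for G12V, so the count of 11 depends on list length.

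Some differences changed sign. With pair 1 alone, the promoter difference was 22.1 points for FOSL2 and 1.27 for ATF3. The difference in peak number for FOSL1 was -2 in pair 1 alone and -1 in equal lists. Without 1 library, promoter differences ranged from -32.1 to 6.78 for FOS, from -41.8 to 31.3 for FOSL2, from -1.4 to 0.789 for ATF3 and from -4.7 to 72.1 for BATF3. Differences in peak number ranged from -5.5 to 0.5 for FOS, from -2 to 3 for FOSB and for FOSL1, from -2 to 1 for JUNB, from -1.5 to 6.5 for ATF3 and from -1.5 to 8.5 for BATF3. Differences in rank-based score ranged from -0.2 to 0.985 at the JUN region at 84.0 kb, from -0.624 to 0.786 at -65.1 kb, from -0.856 to 1.83 at the JUNB region at 99.7 kb, from -1.38 to 0.821 and from -0.212 to 0.468 at the JUND regions at 88.5 and 77.3 kb, and from -0.644 to 0.348 at the ATF3 promoter. The cause was not tested. Leaving out 1 library could not change the sign of the promoter difference of JUN, JUNB or FOSL1. In each of these, both values of 1 cell type lay above both of the other in the full lists.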
